A study of Mus musculus with 20 samples.

Results

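The LRRC8 genes encode the subunits of the volume-regulated anion channel, the plasma membrane channel that opens when a cell swells. The 5 mouse genes Lrrc8a, Lrrc8b, Lrrc8c, Lrrc8d and Lrrc8e were taken by gene symbol from the 57126 gene identifiers counted in hippocampal RNA. No member was left out for its values, but the family was chosen with earlier results of these data known. All 5 were found, 4 of them passed the filter on low counts, and Lrrc8e did not. Levels are given as CPM, the counts of read pairs relative to the library total after TMM scaling in edgeR. Levels of different genes are compared only as TPM, in which each count is also divided by the exonic length of its gene.

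LRRC8A is the obligatory subunit: it assembles with one or more of LRRC8B, LRRC8C, LRRC8D and LRRC8E, and the partners set what passes through the pore. The open channel lets chloride and small organic solutes such as taurine, glutamate and GABA leave the cell, so that water follows and the cell shrinks back. In brain it is known in astrocytes and neurons for the release of taurine and of excitatory amino acids during swelling.

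All mice were male C57BL/6 animals adrenalectomized at about 2.5 months of age, so that their own adrenal glucocorticoids were removed, and were injected intraperitoneally 2 weeks later. The 4 groups of 5 mice were homozygous GRA knockin mice given dexamethasone (KI Dex), homozygous GRA knockin mice given PBS (KI PBS), wild-type mice given dexamethasone (WT Dex) and wild-type mice given PBS (WT PBS). Dexamethasone, a synthetic agonist of the glucocorticoid receptor, was given at 1 mg/kg, PBS was its vehicle, and the hippocampus was collected 6 h after injection. In the knockin mice a mutant exon of Nr3c1, the glucocorticoid receptor gene, keeps the start codon of the full-length GRA isoform and lacks those of the shorter isoforms GRB, GRC1 to GRC3 and GRD1 to GRD3. Poly(A) RNA of the whole hippocampus was sequenced, with 1 library per mouse, so neurons, glia and vessel cells are mixed in every value.

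Library totals ran from 11493014 to 48267708 assigned read pairs. The libraries carried strong neuronal and astrocyte markers, with summed levels of 7619 to 8521 CPM over 8 neuronal genes and 6691 to 7516 CPM over 8 astrocyte genes. Choroid plexus transcripts stood out in KI Dex replicate 2 (1411 CPM over 8 markers) and WT PBS replicate 4 (1811 CPM). The sum of 8 liver markers was highest in WT PBS replicates 1 and 2 (498.7 and 400.5 CPM). Trf alone averaged 231 CPM in KI Dex, 285 CPM in KI PBS, 222 CPM in WT Dex and 279 CPM in WT PBS, so the liver sum is mostly this gene. Alb averaged 40.7 ± 54.1 CPM in WT PBS, against 7.45 to 16.5 CPM in the other groups. Nr3c1 averaged 111 ± 8.69 CPM in KI Dex, 163 ± 24.1 CPM in KI PBS, 98.6 ± 8.27 CPM in WT Dex and 136 ± 21.8 CPM in WT PBS (SD, n = 5 each). Whole-gene counts cannot show mutated start codons, so they did not check the genotype. Fkbp5, a co-chaperone gene induced by the receptor, rose under dexamethasone by a log2 change of 1.58 in knockin mice (edgeR adjusted p = 0.00197, SE 0.30) and of 1.61 in wild-type mice (adjusted p = 0.00187, SE 0.30).

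The genes lie at 3 places in the genome (mm39, GENCODE M34). Lrrc8a is on chromosome 2 from 30127727 to 30153802, Lrrc8b, Lrrc8c and Lrrc8d follow each other on the plus strand of chromosome 5, and Lrrc8e is on chromosome 8 from 4276827 to 4287470. On chromosome 5, Lrrc8b spans 105563641 to 105637940, Lrrc8c 105667254 to 105760884 and Lrrc8d 105847835 to 105963081. The gap between Lrrc8b and Lrrc8c is 29.3 kb and that between Lrrc8c and Lrrc8d 86.95 kb, so a gene that responded to dexamethasone sits between 2 genes that responded little or not at all, as the values below show. The promoter windows of these 4 genes are shown for that contrast. They run from 250 bases before to 50 bases after the annotated start in RefSeq (GRCm38.p6, plus strand for all 4): chr2:30237519-30237818 for Lrrc8a, chr5:105519221-105519520 for Lrrc8c, chr5:105415525-105415824 for Lrrc8b and chr5:105699719-105700018 for the first of the 2 Lrrc8d windows. Capitals mark matches on either strand to the GC box GGGCGG, the CCAAT box, the E-box letters CACGTG and the cyclic AMP response element TGACGTCA, none of which overlap here.
Lrrc8a: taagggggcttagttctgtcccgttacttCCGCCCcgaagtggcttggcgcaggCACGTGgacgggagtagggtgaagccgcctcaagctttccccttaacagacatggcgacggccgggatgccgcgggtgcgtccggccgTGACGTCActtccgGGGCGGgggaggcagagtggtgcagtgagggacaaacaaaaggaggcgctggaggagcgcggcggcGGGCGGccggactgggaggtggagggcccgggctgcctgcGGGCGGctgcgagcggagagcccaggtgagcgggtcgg
Lrrc8c: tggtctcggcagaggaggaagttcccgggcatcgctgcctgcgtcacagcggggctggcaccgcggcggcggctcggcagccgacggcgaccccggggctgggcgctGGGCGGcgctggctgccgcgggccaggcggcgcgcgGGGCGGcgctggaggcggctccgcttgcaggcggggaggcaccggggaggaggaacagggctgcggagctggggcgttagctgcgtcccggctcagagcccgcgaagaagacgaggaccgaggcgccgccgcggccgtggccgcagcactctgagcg
Lrrc8b: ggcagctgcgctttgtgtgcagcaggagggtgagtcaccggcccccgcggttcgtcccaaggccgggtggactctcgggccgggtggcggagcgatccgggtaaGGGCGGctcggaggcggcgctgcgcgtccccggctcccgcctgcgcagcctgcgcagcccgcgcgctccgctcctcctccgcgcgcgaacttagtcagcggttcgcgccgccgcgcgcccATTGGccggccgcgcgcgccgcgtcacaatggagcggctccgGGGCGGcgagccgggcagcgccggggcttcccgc
Lrrc8d: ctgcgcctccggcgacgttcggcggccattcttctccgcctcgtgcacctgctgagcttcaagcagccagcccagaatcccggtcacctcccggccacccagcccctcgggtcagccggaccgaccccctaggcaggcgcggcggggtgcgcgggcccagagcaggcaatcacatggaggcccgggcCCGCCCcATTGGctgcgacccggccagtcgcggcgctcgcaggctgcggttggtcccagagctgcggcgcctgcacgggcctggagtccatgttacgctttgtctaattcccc

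All 4 windows were rich in G and C, at 70% in Lrrc8a, 78% in Lrrc8c, 78% in Lrrc8b and 71.3% in Lrrc8d. The Lrrc8a window held 4 GC boxes, 1 E-box and 1 cyclic AMP response element, which 35.7%, 7.15% and 1.79% of all 32851 RefSeq windows of that length hold at least once. The Lrrc8c window held 2 GC boxes and none of the other motifs searched. Lrrc8b had 2 GC boxes and 1 CCAAT, and Lrrc8d 1 of each, with CCAAT present in 37.4% of all windows. The full glucocorticoid response element (AGAACA followed 3 bases later by TGTTCT) and TGTTCT alone, which lies within it, were in none of these windows nor in the other Lrrc8d window or that of Lrrc8e, and neither were TGGAAA, the core of the NFAT5 (tonicity element) motif, or TATAAA. Of all windows, 0.00913% hold the full element, 19% TGTTCT alone, 21.4% TGGAAA and 13.6% TATAAA. These matches describe the letters of the windows and were not tested for binding.

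Dexamethasone raised the transcripts of the obligatory subunit gene Lrrc8a and of the partner gene Lrrc8c in both genotypes, by 1.72 to 1.94 times. Lrrc8b, the most abundant of the family per length, was 1.09 times as high in WT Dex as in WT PBS, a difference that barely passed the test. For Lrrc8d no difference was detected in either genotype, and Lrrc8e was almost without reads. Knockin and wild-type mice did not differ detectably in any member tested under either treatment after adjustment, and Lrrc8e was not tested.

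**Figure D1:**
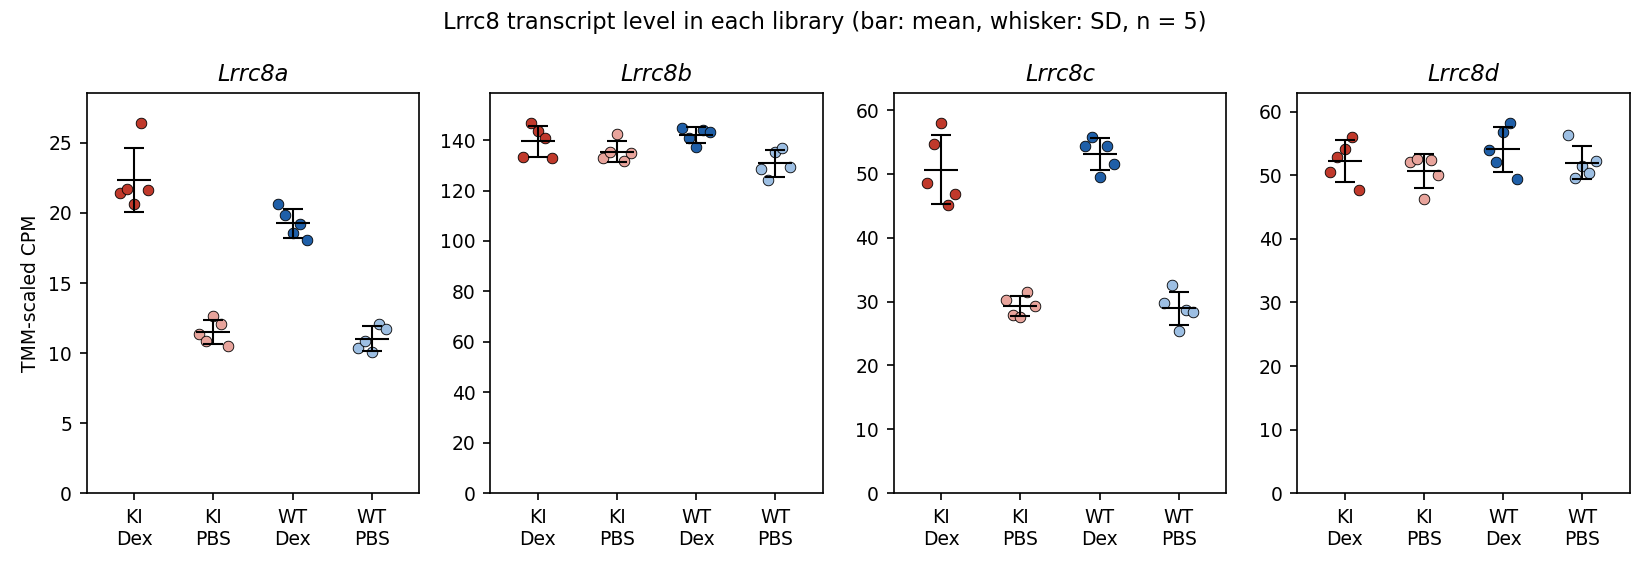
TMM-scaled CPM of Lrrc8a, Lrrc8b, Lrrc8c and Lrrc8d in each library (points), with group mean (bar) and SD (whisker, n = 5), by group; the linear axes start at 0. For Lrrc8a and Lrrc8c all Dex libraries lie above all PBS libraries of the same genotype, whereas the groups lie close together for Lrrc8b and overlap for Lrrc8d.

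Lrrc8a, the subunit without which no channel of this family reaches the membrane in cell lines, had 21.4, 21.7, 20.6, 26.4 and 21.6 CPM in the KI Dex libraries, against 11.4, 10.8, 12.6, 12.1 and 10.5 CPM in KI PBS. In wild-type mice it had 20.7, 19.9, 18.5, 19.2 and 18.1 CPM in WT Dex, against 10.4, 10.9, 10.1, 12.1 and 11.7 CPM in WT PBS. Every Dex library was above every PBS library of its genotype, and KI Dex replicate 4 was the highest of all 20. The group means were 22.4 ± 2.31, 11.5 ± 0.859, 19.3 ± 1.04 and 11.0 ± 0.866 CPM in KI Dex, KI PBS, WT Dex and WT PBS (SD, n = 5 each). The rise was 1.94-fold in knockin mice (95% interval 1.75 to 2.15, log2 0.96, SE 0.07, edgeR adjusted p = 2.66e-10). In wild-type mice it was 1.76-fold (95% interval 1.58 to 1.95, log2 0.81, SE 0.07, edgeR adjusted p = 8.77e-09).

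The Lrrc8a counts come from a limited stretch of the gene. Of its 4308 exonic bases, 2944 are shared with other annotated genes, Gm28035 on the same strand and 1700084E18Rik on the other. Because read pairs that fit several genes were left out of the counts, only pairs that touch the unshared 1364 bases (31.7%), at the 3′ end of the last exon from 30152439 to 30153802, could be assigned to Lrrc8a alone. The fold changes compare the same stretch in all groups, but the level of Lrrc8a per length is understated when all its exonic bases are used. Gm28035 received 292 counts over all 20 libraries, at 0.812 ± 0.179 CPM in KI Dex, 0.481 ± 0.168 CPM in KI PBS, 0.676 ± 0.200 CPM in WT Dex and 0.474 ± 0.208 CPM in WT PBS (SD, n = 5 each). Pairs that fit both Gm28035 and another gene were left out in the same way, so its level is understated as well. Averaged over both genotypes its log2 level was 0.63 higher under dexamethasone (edgeR adjusted p = 0.0358, SE 0.21). That call ended when any 1 of 10 libraries was left out (WT PBS replicates 1 and 3, WT Dex 1 and 5, KI PBS 2, 3 and 5, KI Dex 3, 4 and 5), with adjusted p of 0.0523 to 0.0857. What part of the Lrrc8a signal belongs to Gm28035 was not tested.

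Lrrc8c, a partner subunit that with LRRC8A also passes the immune messenger cGAMP, had 48.7, 54.7, 58.0, 45.1 and 46.9 CPM in KI Dex, against 30.2, 28.0, 27.7, 31.4 and 29.3 CPM in KI PBS. In wild-type mice the libraries held 54.3, 55.8, 49.5, 54.4 and 51.5 CPM in WT Dex, against 29.7, 32.7, 25.4, 28.7 and 28.3 CPM in WT PBS. No Dex library reached down to a PBS library of either genotype. Means were 50.7 ± 5.44, 29.3 ± 1.57, 53.1 ± 2.53 and 29.0 ± 2.61 CPM in KI Dex, KI PBS, WT Dex and WT PBS (SD, n = 5 each). Lrrc8c rose 1.72-fold in knockin mice (95% interval 1.57 to 1.89, log2 0.78, SE 0.07, edgeR adjusted p = 5.27e-09) and 1.83-fold in wild-type mice (95% interval 1.67 to 2.01, log2 0.87, SE 0.07, edgeR adjusted p = 1.22e-09). None of its 6976 exonic bases is shared with another annotated gene.

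Lrrc8b, whose product gives little swelling-activated current when paired with LRRC8A alone in cell lines, had 133, 147, 144, 141 and 133 CPM in KI Dex, against 133, 135, 142, 132 and 135 CPM in KI PBS. In wild-type mice it had 145, 141, 137, 144 and 143 CPM in WT Dex, against 128, 124, 135, 137 and 129 CPM in WT PBS. The knockin groups overlapped, and the wild-type groups were separate by a narrow margin. The difference was 0.04 on the log2 scale in knockin mice (95% interval -0.03 to 0.12, edgeR adjusted p = 0.564). In wild-type mice it was 0.12 (SE 0.04, 95% interval 0.05 to 0.19, edgeR adjusted p = 0.0335), a change of 8.58%. The wild-type call was lost in 11 of 20 alternative analyses, 7 of which left out a single library (WT PBS replicate 1, 2 or 5, or WT Dex replicate 1, 2, 4 or 5), with adjusted p of 0.0605 to 0.107 and log2 differences of 0.10 to 0.12. Without WT PBS replicates 1 and 2, the libraries with the highest liver marker sums, it was 0.08 (adjusted p = 0.269).

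Lrrc8d, the partner linked in cell lines to the passage of taurine and of the drug cisplatin, had 50.5, 52.9, 54.1, 56.0 and 47.6 CPM in KI Dex, against 52.1, 52.5, 46.3, 52.3 and 50.1 CPM in KI PBS. In wild-type mice it had 54.0, 52.1, 56.8, 58.2 and 49.4 CPM in WT Dex, against 56.4, 49.6, 51.4, 50.3 and 52.2 CPM in WT PBS. All 4 groups overlapped. The differences were 0.04 on the log2 scale in knockin mice (95% interval -0.06 to 0.14, edgeR adjusted p = 0.711) and 0.06 in wild-type mice (95% interval -0.05 to 0.16, edgeR adjusted p = 0.601). The intervals allow a rise of at most 1.11-fold in knockin and 1.12-fold in wild-type mice. An antisense gene, Lrrc8dos, shares 218 of its 4220 exonic bases and received 50 counts in all.

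Lrrc8e, another partner known for cGAMP transport, collected 15 read pairs in 469832822 over the 20 libraries. The sums per group were 6 in KI Dex, 1 in KI PBS, 4 in WT Dex and 4 in WT PBS, no library held more than 2, and 9 libraries held none. The pooled level was 0.0319 CPM (95% exact Poisson interval 0.0179 to 0.0527, counting error only). In the libraries at 0, the limit that a count of 0 allows (3 counts) lay between 0.098 and 0.261 CPM. No fold change is given, since the level was at or under this limit in every group.

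Of the 4 genes tested, 2 were called higher under dexamethasone in knockin mice, where 5.28% of the 18648 genes tested were called higher, 4.71% lower and 10.0% in either direction. In wild-type mice 3 were called higher, against a background of 5.27% higher, 3.94% lower and 9.21% in either direction. Groups that did not overlap in any library were seen for 8.68% of all genes in knockin and 8.22% in wild-type mice. In size, only 1.09% of tested genes had a log2 change at least as high as that of Lrrc8a in knockin mice and 1.28% in wild-type mice. For Lrrc8c these shares were 1.51% in knockin and 1.14% in wild-type mice. Among the 985 genes called higher in knockin mice, with a median log2 change of 0.36, 167 rose at least as much as Lrrc8a and 221 at least as much as Lrrc8c. Among the 983 called higher in wild-type mice, with a median of 0.34, these numbers were 200 and 186.

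**Figure D2:**
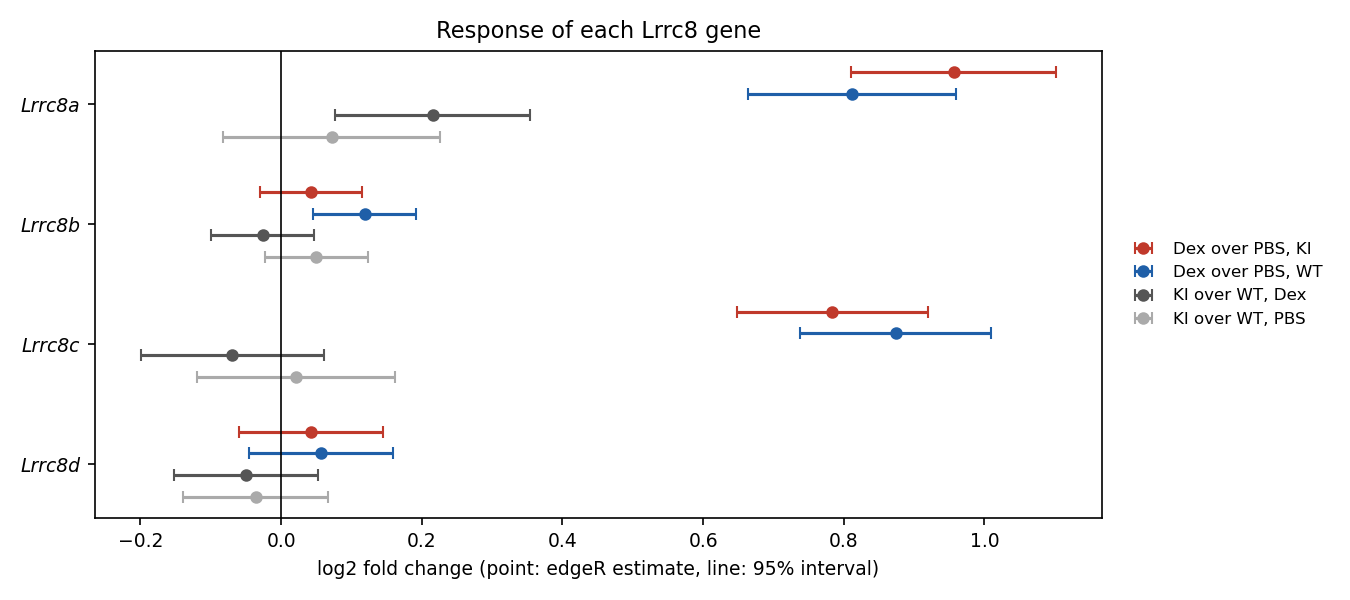
Log2 fold change of the 4 tested Lrrc8 genes (points) with 95% intervals (lines) for dexamethasone over PBS in each genotype and for knockin over wild-type under each treatment; the vertical line marks 0. The dexamethasone changes of Lrrc8a and Lrrc8c lie between 0.78 and 0.96 in both genotypes, and all changes of Lrrc8b and Lrrc8d lie near 0.

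Knockin mice were compared with wild-type mice under each treatment, which asks whether the full-length isoform alone gives other transcript levels; each of these comparisons shares its libraries with a dexamethasone comparison above. Without dexamethasone, KI PBS differed from WT PBS on the log2 scale by 0.07 in Lrrc8a, 0.05 in Lrrc8b, 0.02 in Lrrc8c and -0.04 in Lrrc8d (edgeR adjusted p = 1 for all 4). Under dexamethasone, KI Dex differed from WT Dex by -0.03 in Lrrc8b, -0.07 in Lrrc8c and -0.05 in Lrrc8d (adjusted p = 1). Lrrc8a was 0.22 higher in KI Dex than in WT Dex (95% interval 0.08 to 0.35), with an unadjusted edgeR p of 0.00361 and an adjusted p of 1; 828 of the 18648 genes had an unadjusted p below 0.05 there. All 4 genes overlapped between the genotypes under both treatments, where 0.670% of all genes did not overlap between KI PBS and WT PBS and 0.788% between KI Dex and WT Dex. For Lrrc8a under dexamethasone the overlap was narrow, with the lowest KI Dex library at 20.62 CPM and the highest WT Dex library at 20.67 CPM. Without KI Dex replicate 4 the Lrrc8a difference was 0.15. In the edgeR test 0 genes were called in either genotype comparison, and 673 had an unadjusted p below 0.05 between KI PBS and WT PBS; DESeq2 and limma-voom likewise called 0.

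The difference of the dexamethasone responses, knockin minus wild-type, was 0.14 for Lrrc8a (95% interval -0.06 to 0.35), -0.08 for Lrrc8b (-0.18 to 0.03), -0.09 for Lrrc8c (-0.28 to 0.10) and -0.01 for Lrrc8d (-0.16 to 0.13), all on the log2 scale. The edgeR adjusted p was 1 for each, and of all genes 0 were called by edgeR, DESeq2 or limma-voom and 527 had an unadjusted p below 0.05. These intervals bound the difference but do not show that the genotypes respond alike. Averaged over both genotypes, the dexamethasone response was 0.88 for Lrrc8a (SE 0.05, edgeR adjusted p = 5.79e-13), 0.83 for Lrrc8c (SE 0.05, adjusted p = 1.05e-12), 0.08 for Lrrc8b (SE 0.03, adjusted p = 0.0245) and 0.05 for Lrrc8d (SE 0.04, adjusted p = 0.394). In this averaged comparison 9.79% of all genes were called higher and 18.2% in either direction. The averaged Lrrc8b call was lost in 6 of 29 alternatives, among them leaving out WT PBS replicate 2, KI Dex replicate 2 or KI Dex replicate 3 (adjusted p of 0.0514 to 0.0605, log2 0.07 to 0.08).

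Since Lrrc8a and Lrrc8c rose and Lrrc8b and Lrrc8d moved little, the make-up of the family transcripts changed. Summed over the 5 genes, the level was 132 ± 6.36 TPM in KI Dex, against 114 ± 1.33 TPM in KI PBS, and 134 ± 5.27 TPM in WT Dex, against 115 ± 3.81 TPM in WT PBS (SD, n = 5 each). Lrrc8b made up the largest part, at 45.5 ± 0.647% of the summed TPM in KI Dex, against 51.6 ± 1.68% in KI PBS, and 45.9 ± 1.10% in WT Dex, against 50.5 ± 1.64% in WT PBS. Lrrc8d was next and was likewise smaller under dexamethasone, at 27.2 ± 0.781% in KI Dex, against 30.8 ± 1.54% in KI PBS, and 27.8 ± 1.49% in WT Dex, against 32.0 ± 1.37% in WT PBS. A share falls when the other genes of the sum rise, so the lower shares of Lrrc8b and Lrrc8d are no drop in their own level.

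The share of Lrrc8c was 15.9 ± 1.38% in KI Dex, against 10.8 ± 0.554% in KI PBS, and 16.5 ± 0.616% in WT Dex, against 10.8 ± 1.09% in WT PBS. That of Lrrc8a was 11.4 ± 1.14% in KI Dex, against 6.84 ± 0.485% in KI PBS, and 9.72 ± 0.389% in WT Dex, against 6.65 ± 0.502% in WT PBS (SD, n = 5 each). The ratios that follow use all exonic bases of Lrrc8a, which understates its level. Per TPM of Lrrc8a there were 4.01 TPM of Lrrc8b in KI Dex, against 7.56 in KI PBS, and 4.72 in WT Dex, against 7.61 in WT PBS. For Lrrc8d the ratio was 2.39 in KI Dex, against 4.50 in KI PBS, and 2.86 in WT Dex, against 4.82 in WT PBS. For Lrrc8c it stayed within 1.40 to 1.70 in all 4 groups, as both genes rose. Dexamethasone thus went with more Lrrc8a transcript relative to Lrrc8b and Lrrc8d in the counted RNA.

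The level of Lrrc8a depends on the length used, and neither length is exact. Pairs that lie only partly in the unshared bases were counted as well, so the level over these bases alone may be too high. Divided by its unshared 1364 bases alone, Lrrc8a came to 47.4 ± 4.45 TPM in KI Dex, against 24.6 ± 1.98 TPM in KI PBS, and 41.1 ± 2.13 TPM in WT Dex, against 24.1 ± 1.65 TPM in WT PBS, where all exonic bases gave 15.0, 7.80, 13.0 and 7.64 TPM. Its share of the family was then 28.5% in KI Dex, against 18.5% in KI PBS, and 25.1% in WT Dex, against 18.1% in WT PBS. With the unshared length the order of levels under PBS was Lrrc8b, Lrrc8d, Lrrc8a and Lrrc8c, and under dexamethasone Lrrc8a lay above Lrrc8d in the group means, whereas with all exonic bases Lrrc8a was the lowest of the 4 in every group. The rank of Lrrc8a within the family is therefore uncertain, while the order Lrrc8b, Lrrc8d, Lrrc8c held in all 4 groups with either length. The sizes of the ratios to Lrrc8a are uncertain in the same way. With the unshared length Lrrc8c lay below Lrrc8a in every group, at 21.0 against 47.4 TPM in KI Dex and 12.4 against 24.1 TPM in WT PBS. Shares of transcripts say nothing of the subunits in assembled channels, and no test was run on shares.

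**Figure D3:**
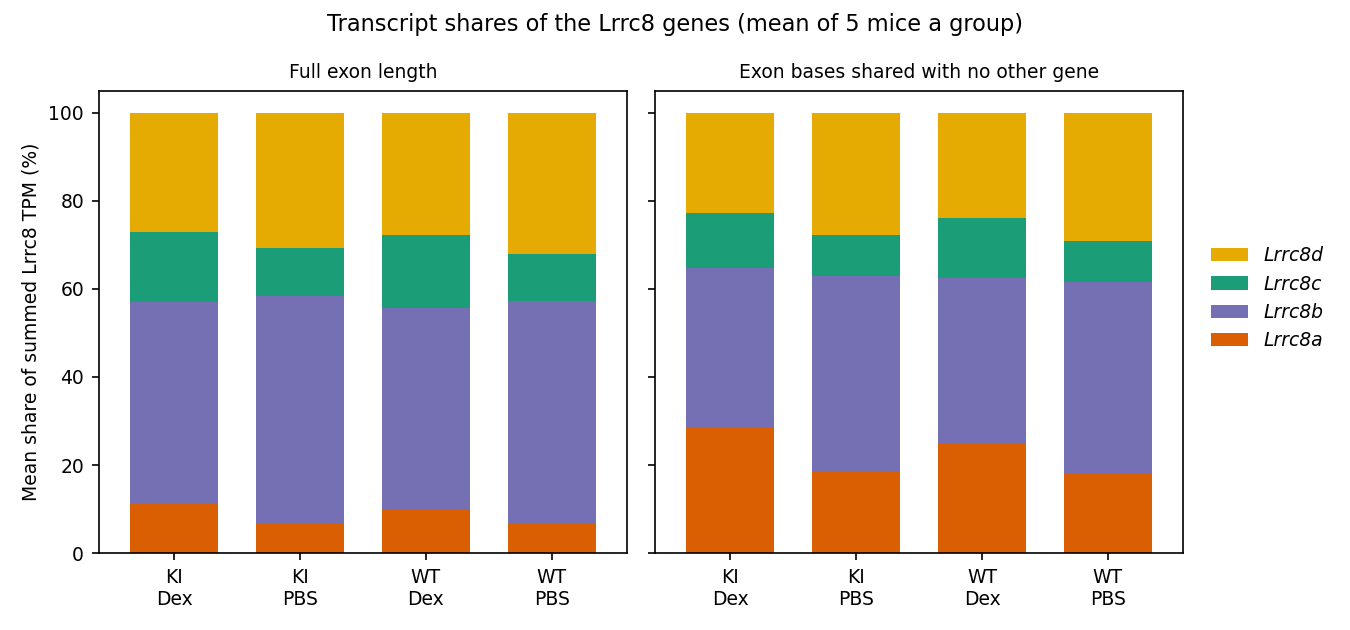
Share of the summed Lrrc8 TPM taken by each gene in percent, mean over 5 libraries per group, with all exonic bases as the length (left) and with the unshared bases alone (right). With either length the parts of Lrrc8a and Lrrc8c are larger in KI Dex and WT Dex than in KI PBS and WT PBS, and Lrrc8b is the largest part in every group.

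In bulk tissue, a change in the number of cells of a type and a change in RNA per cell cannot be told apart. The summed neuronal markers ranged from 7879 to 8112 CPM in KI Dex, against 7619 to 8521 CPM in KI PBS, and from 7866 to 8263 CPM in WT Dex, against 7790 to 8148 CPM in WT PBS. The 8 astrocyte markers summed to 6789 to 7516 CPM in KI Dex, against 6771 to 7330 CPM in KI PBS, and to 6691 to 6930 CPM in WT Dex, against 6755 to 7149 CPM in WT PBS. Both sums thus overlapped between treatments. Slc1a2 alone, a glutamate transporter gene, averaged 4763 CPM in KI Dex, against 4625 CPM in KI PBS, and 4554 CPM in WT Dex, against 4507 CPM in WT PBS, so the astrocyte sum is mostly this gene. In the averaged comparison, where 9.79% of all genes were called higher and 8.41% lower, 1 of 8 neuronal markers was called higher and 0 lower, and 1 of 8 astrocyte markers was called higher and 2 lower. The astrocyte marker Aldh1l1, a folate enzyme gene, rose by 0.56 on the log2 scale (edgeR adjusted p = 2.35e-08), while Aqp4 fell by 0.41 (adjusted p = 3.62e-10) and the transcription factor gene Sox9 by 0.24 (adjusted p = 0.0154). The 8 markers of mature oligodendrocytes summed to 4635 to 5549 CPM in KI Dex, against 4704 to 6422 CPM in KI PBS, and to 3691 to 5393 CPM in WT Dex, against 4836 to 5361 CPM in WT PBS, which overlapped. Of these, 1 was called higher and 4 lower. Opalin, a myelin membrane protein gene, fell by 1.20 (log2, edgeR adjusted p = 6.75e-11), Aspa, the aspartoacylase gene, by 0.98 (adjusted p = 6.67e-07) and Cnp by 0.27 (adjusted p = 0.00494), whereas Mobp rose by 0.43 (adjusted p = 0.0112). Mog was 0.21 lower (adjusted p = 0.0355), a call that ended without any 1 of 8 libraries (WT PBS 1, 3 and 4, KI PBS 3 and 4, KI Dex 3, 4 and 5; adjusted p of 0.0503 to 0.0647). The sum of the 8 microglial markers was lower under dexamethasone, at 358.8 to 381.6 CPM in KI Dex, against 398.9 to 451.0 CPM in KI PBS, and at 362.5 to 396.6 CPM in WT Dex, against 406.3 to 472.0 CPM in WT PBS, with 2 of 8 called higher and 4 lower. The 6 markers of oligodendrocyte precursors summed to 327.8 to 361.3 CPM in KI Dex, against 279.7 to 326.0 CPM in KI PBS, and to 302.5 to 369.8 CPM in WT Dex, against 288.6 to 330.7 CPM in WT PBS, with 5 of 6 called higher and 0 lower. The 8 endothelial markers summed to 247.8 to 278.2 CPM in KI Dex, against 252.4 to 299.9 CPM in KI PBS, and to 247.1 to 292.2 CPM in WT Dex, against 276.5 to 302.4 CPM in WT PBS, with 1 called higher and 3 lower. No list had a marker at 0 in all libraries, and the part of these cell types in the Lrrc8 changes was not tested.

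Within groups, no pair of the 4 genes was strongly correlated, though 20 libraries leave each value imprecise. Over the 20 libraries, each taken as its deviation from its group mean in log2 CPM, Pearson's r between pairs of members lay from -0.14 (Lrrc8a with Lrrc8c) to 0.21 (Lrrc8a with Lrrc8b). All genes of a library share its depth and dissection, and these values are descriptions. The genes named next are the 3 with the highest r of all those compared, so the choice itself gives high values. No chance level was worked out for them, and whether they vary together with the member was not tested. Among 12768 genes the closest to Lrrc8a were Sardh (sarcosine dehydrogenase, r = 0.77), Tet2 (an enzyme of DNA demethylation, r = 0.76) and Epas1 (hypoxia-inducible factor 2 alpha, r = 0.76). The closest to Lrrc8c were Zbtb1, Prkx and Golph3 (r = 0.79 each). For Lrrc8b they were Plekhg1 (r = 0.89), St6gal2 (r = 0.83) and Cadm2 (r = 0.81), and for Lrrc8d Dmrtc1a (r = 0.83), Lypd1 (r = 0.80) and Cops4 (r = 0.79).

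Genes next to the responding members were examined in the averaged dexamethasone comparison. Within 300 kb of Lrrc8a, 24 of 28 neighbouring genes could be tested, of which 7 were called higher and 3 lower, where 9.79% of all genes tested were called higher and 8.41% lower. Those called higher include Gm28035 and 1700084E18Rik, which share exonic bases with Lrrc8a and so are not separate from it. Others among them rose by only 0.07, 0.08 and 0.11 on the log2 scale. Kyat1, which shares no exonic bases with Lrrc8a, rose by 0.30 (edgeR adjusted p = 0.0106). Its log2 change was 0.43 in knockin mice (edgeR adjusted p = 0.018) and 0.18 in wild-type mice (adjusted p = 0.432). Kyat1 was not followed in the alternative analyses. The largest rise was that of Phyhd1, which encodes a phytanoyl-CoA dioxygenase family member and begins just after the end of Lrrc8a, at 30156215. Phyhd1 had a mean of 0.961 ± 0.227 CPM in KI Dex, against 0.262 ± 0.123 CPM in KI PBS, and 0.883 ± 0.262 CPM in WT Dex, against 0.209 ± 0.0705 CPM in WT PBS (SD, n = 5 each). It rose by a log2 change of 1.81 in knockin mice (edgeR adjusted p = 0.000144, SE 0.31) and of 2.02 in wild-type mice (edgeR adjusted p = 6.49e-05, SE 0.32). Its 275 counts over all libraries are few, and Gm28035 shares exons with both Phyhd1 and Lrrc8a. Pairs that fit both Phyhd1 and Gm28035 were left out of the counts, so the level of Phyhd1 is understated.

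Around the chromosome 5 genes, 6 of 23 neighbours could be tested, 0 were called higher and 2 lower, beside the same 9.79% and 8.41% of all genes. Those called lower were the interferon-induced guanylate-binding protein genes Gbp9 (log2 -1.23) and Gbp4 (log2 -1.40), which lie beyond Lrrc8b on the minus strand. Since the Gbp genes are close copies of each other, their counts are uncertain. Apart from the small Lrrc8b difference, no other tested gene within that distance of the cluster was called higher alongside Lrrc8c.

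**Figure D4:**
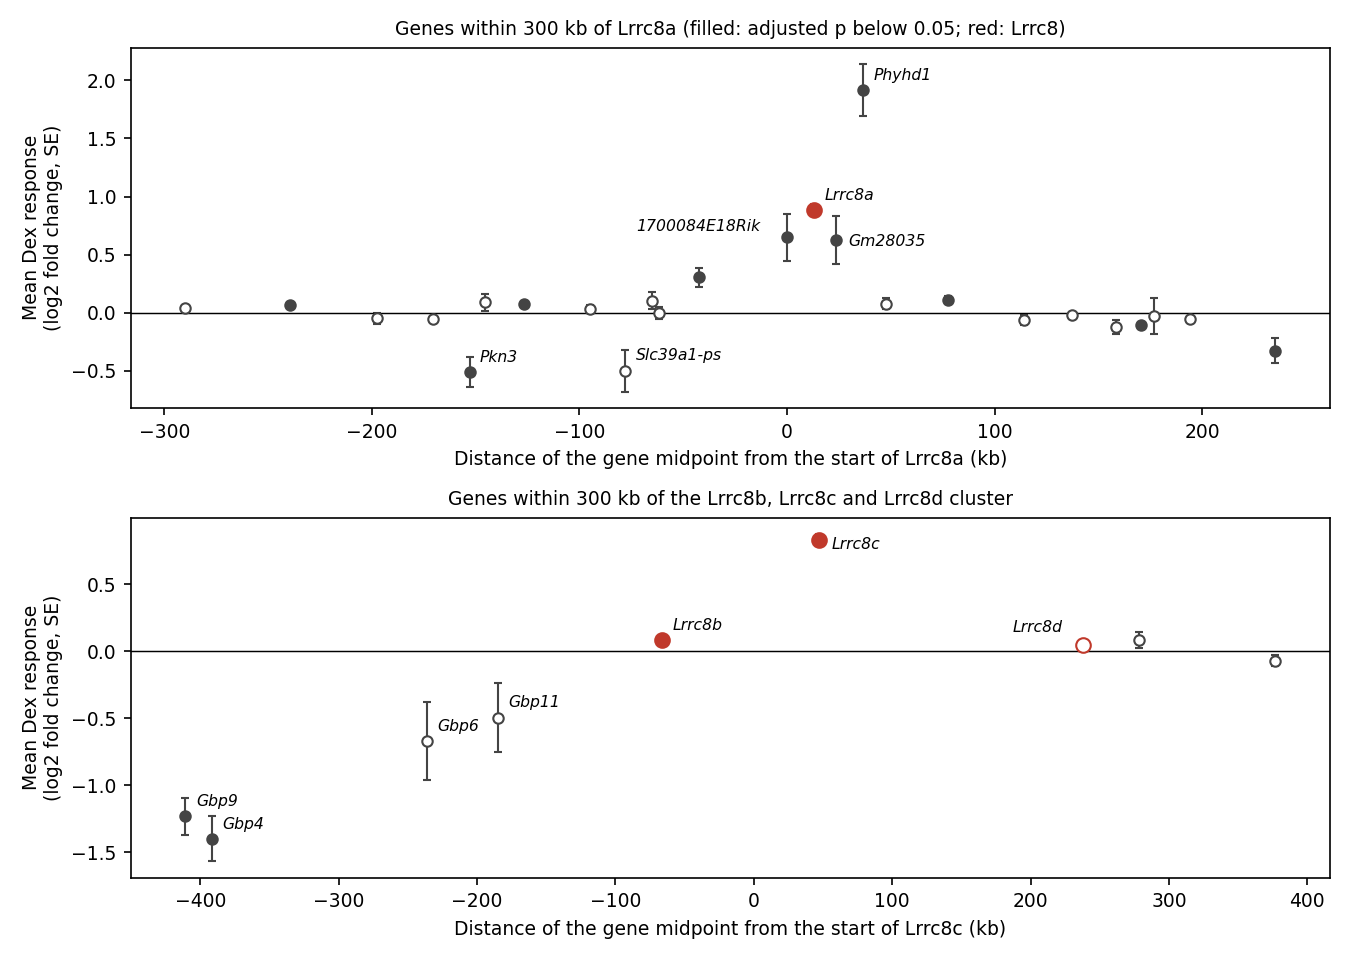
Log2 change under dexamethasone, averaged over both genotypes, with its SE, for genes within 300 kb of Lrrc8a (upper) and of the Lrrc8b to Lrrc8d cluster (lower), against the distance of each gene's midpoint in kb. Filled points passed edgeR's adjusted p of 0.05, and red points are Lrrc8 genes; Phyhd1 lies highest beside Lrrc8a, and Lrrc8c stands alone above 0.5 in the lower panel.

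Genes that act with the channel in volume control and in handling what it releases were counted in 4 lists, in the averaged dexamethasone comparison, where the background was 9.79% called higher and 8.41% called lower. Of the cation-chloride cotransporters and their WNK kinases, which set the chloride gradient, 14 of 16 could be tested, 2 were called higher and 1 lower, with a median log2 change of 0.02 against 0.00 over all genes tested. Wnk2, a kinase that regulates the cotransporters, was at 146 ± 3.97 CPM in KI Dex, against 118 ± 4.82 CPM in KI PBS, and at 147 ± 6.12 CPM in WT Dex, against 117 ± 9.19 CPM in WT PBS. It rose by 0.30 in knockin mice (edgeR adjusted p = 1.53e-05) and by 0.33 in wild-type mice (adjusted p = 6.09e-06). Slc12a7, the potassium-chloride cotransporter KCC4, fell by 0.39 on average (adjusted p = 0.000148), with -0.58 in knockin mice (adjusted p = 0.000172) and -0.21 in wild-type mice (adjusted p = 0.251); the difference of these responses had an adjusted p of 1. Wnk4 was 0.45 higher (adjusted p = 0.0263), a call that ended without WT PBS replicate 3 or KI Dex replicate 4 (adjusted p of 0.0585 and 0.0522).

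Of 20 tested genes from other families of anion channels or proposed anion channels, 3 were called higher and 3 lower, with a median log2 change of 0.01. Not all of them encode established anion channels. Ttyh3, a member of the tweety family, rose by 0.44 in knockin mice (edgeR adjusted p = 9.91e-08) and by 0.40 in wild-type mice (adjusted p = 5.98e-07), at 302 ± 13.1 CPM in KI Dex, against 223 ± 5.45 CPM in KI PBS, and 291 ± 17.8 CPM in WT Dex, against 221 ± 15.7 CPM in WT PBS. Ano1, the calcium-activated chloride channel, fell by 0.60 on average (adjusted p = 6.28e-05) at a low level, with 2.98 ± 0.435 CPM in KI Dex, against 4.17 ± 0.814 CPM in KI PBS, and 2.89 ± 0.288 CPM in WT Dex, against 4.82 ± 0.813 CPM in WT PBS. Ano10 fell by 0.18 (adjusted p = 0.00947). Cftr, under 1 CPM in every group, was 0.76 higher (adjusted p = 0.00902). Ttyh2 was 0.26 lower (adjusted p = 0.0244), a call that ended without KI PBS replicate 3 (adjusted p = 0.0511). Ttyh1, another tweety family member, was 0.09 higher (adjusted p = 0.0435), and that call ended without any 1 of 14 libraries (all but WT PBS 3 and 5, WT Dex 4 and 5, KI PBS 3 and KI Dex 2; adjusted p of 0.0520 to 0.0919). Clns1a, once proposed as the swelling-activated channel itself, and Clcn3 differed by -0.01 and 0.02 (adjusted p = 0.925 and 0.698).

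Of 19 genes for water channels, osmolyte transport and taurine synthesis that were tested, 4 were called higher and 4 lower, with a median log2 change of -0.05. Aqp4, the water channel of astrocyte end-feet, averaged 176 ± 10.8 CPM in KI Dex, against 237 ± 17.1 CPM in KI PBS, and 182 ± 7.73 CPM in WT Dex, against 240.2 ± 8.90 CPM in WT PBS. It fell by 0.42 in knockin mice (edgeR adjusted p = 2.99e-07) and by 0.40 in wild-type mice (adjusted p = 7.28e-07). Aqp9, an aquaglyceroporin at 0.971 to 2.04 CPM, fell by 0.82 on average (adjusted p = 0.000109). The inositol transporter gene Slc2a13 rose by 0.18 (adjusted p = 0.000169), the creatine transporter gene Slc6a8 by 0.14 (adjusted p = 0.000242), and Impa1, which releases free inositol, by 0.11 (adjusted p = 0.0116). Csad, the cysteine sulfinate decarboxylase of taurine synthesis, rose by 0.22 (adjusted p = 0.00991), whereas the taurine transporter gene Slc6a6 was 0.18 lower (adjusted p = 0.0358) and Ado, which makes the taurine precursor hypotaurine, 0.09 lower (adjusted p = 0.0334). The call of Slc6a6 ended without any 1 of 13 libraries (all but WT PBS 1 and 2, WT Dex 3 and 5, KI PBS 4, KI Dex 1 and 5; adjusted p of 0.0560 to 0.0706). That of Ado ended without any 1 of 10 (WT PBS 3, 4 and 5, WT Dex 2, 3 and 4, KI PBS 3, KI Dex 1, 3 and 4; adjusted p of 0.0531 to 0.0758). Nfat5, the transcription factor of the tonicity response, differed by -0.06 (adjusted p = 0.194).

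Of 13 genes that take up or process what the channel releases, all tested, 2 were called higher and 4 lower, with a median log2 change of 0.00. Glul, the glutamine synthetase of astrocytes, averaged 2165 ± 114 CPM in KI Dex, against 1463 ± 143 CPM in KI PBS, and 2030 ± 112 CPM in WT Dex, against 1451 ± 125 CPM in WT PBS. It rose by 0.57 in knockin mice (edgeR adjusted p = 1.9e-06) and by 0.48 in wild-type mice (adjusted p = 1.57e-05). Gad2, a GABA-synthesising enzyme, rose by 0.13 on average (adjusted p = 0.0102). Slc1a4, a neutral amino acid transporter, fell by 0.32 (adjusted p = 1.63e-08). Sting1, the cGAMP sensor, fell by 0.79 (adjusted p = 4.22e-06) at 2.73 ± 0.613 CPM in KI Dex, against 4.96 ± 0.861 CPM in KI PBS, and 2.68 ± 0.609 CPM in WT Dex, against 4.43 ± 0.427 CPM in WT PBS. Enpp1, which degrades cGAMP outside the cell, fell by 0.48 (adjusted p = 0.000845). Slc6a11, the GABA transporter GAT3, was 0.09 lower (adjusted p = 0.0410), a call that ended without any 1 of 11 libraries (WT PBS 4 and 5, WT Dex 3, 4 and 5, KI PBS 1, 3 and 4, KI Dex 1, 2 and 5; adjusted p of 0.0598 to 0.0896). The glutamate transporter genes Slc1a2 and Slc1a3 differed by 0.03 and 0.00 (adjusted p = 0.441 and 0.955).

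**Figure D5:**
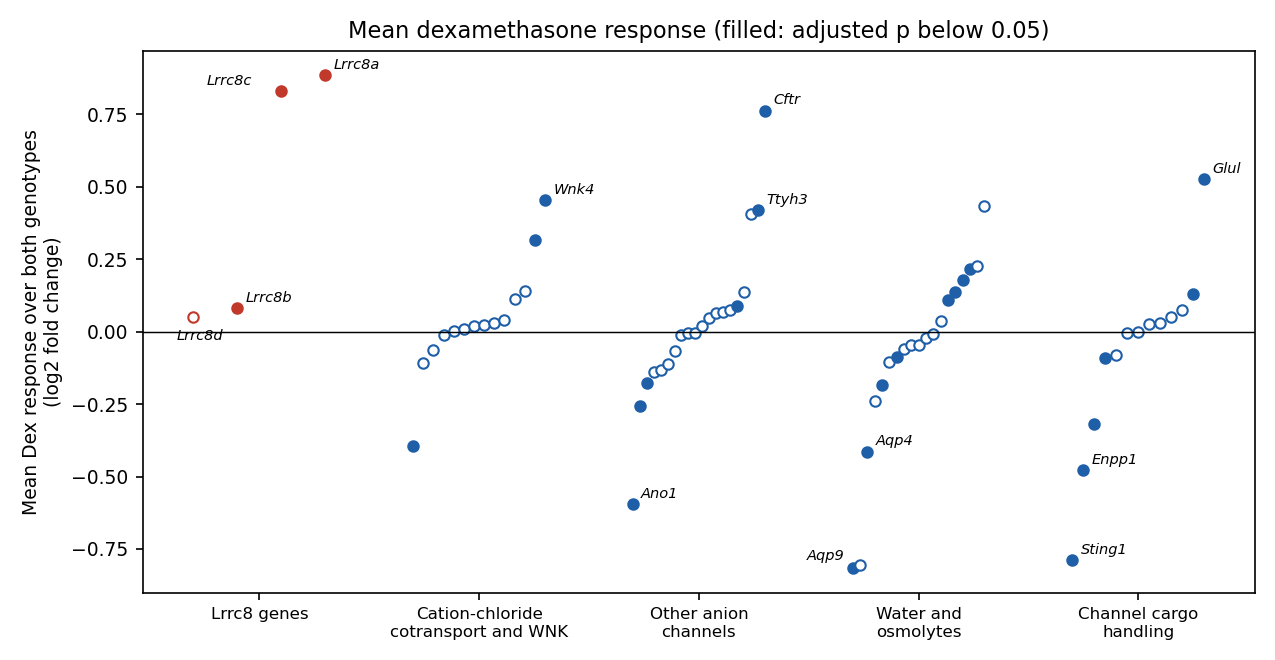
Log2 change under dexamethasone averaged over both genotypes for the Lrrc8 genes (red) and the 4 lists (blue), with genes ordered by value within each list; filled points passed edgeR's adjusted p of 0.05. Lrrc8a and Lrrc8c lie at 0.88 and 0.83, above every listed gene, and the lists scatter on both sides of 0.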

How the data were processed

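Poly(A) RNA of whole mouse hippocampus was sequenced as 75-base read pairs in 20 libraries, 5 per group, per the labels' protocols; the labels' biological replicates are read as 1 mouse each, and were any to share an animal, the tests would reflect technical spread alone. Each deposited file holds the raw pair counts of 1 library by gene, made by the authors with featureCounts 2.0.6 on GENCODE M34, without strand, multi-mapping or multi-overlap options, per the file headers. The submitters' processing notes name STAR 2.5.1, mm39, Subread 1.5.1 and DESeq2 1.38.3. The gene lengths used for TPM are the exonic bases in the deposited files.

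The filterByExpr function (at least 10 counts in enough libraries, 15 in all) passed 18648 genes. edgeR 4.0.16 in R 4.3.3 scaled libraries by TMM (trimmed mean of M values) and fitted a robust quasi-likelihood model to all 20 libraries with 1 term per group (16 residual degrees of freedom). Benjamini-Hochberg adjustment ran over these 18648 genes, and adjusted p below 0.05 made a call. The fit was tested on simulated data. CPM, TPM and log2 values were computed here from the deposited counts. Symbols came from a names table matched on identifiers (51884 of 57126). Promoter windows are RefSeq's on GRCm38.p6, used for sequence only. A comparison of all 40 library pairs within groups found no library deposited in duplicate.

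The Lrrc8 genes and the 4 lists (70 genes) were chosen with earlier results of these data known, so they lend no independent support. Another gene of the lists is not reported here. Named list genes are up to 6 per list with the largest averaged change among those called; Ado, Impa1, Clns1a, Clcn3, Nfat5, Slc1a2 and Slc1a3 were added after their values were seen, as were the neighbouring genes and the cell type markers named with a change. Alternatives were DESeq2 1.42.0, limma 3.58.1 (voom), other scalings and filters, fits of only the groups compared, a replicate block, and leaving out libraries. A second length for Lrrc8a and Lrrc8d was added after the exon overlap was seen.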

Additional observations from a re-analysis of the deposited data

Results flagged for a closer look

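Lrrc8a in KI Dex: replicate 4 held 26.4 CPM, and the nearest other library of the group held 21.7 CPM, so that the gap took up more of the group's range than Dixon's 95% limit for 5 samples allows. Of 16 sets of 5 libraries examined (4 genes in 4 groups), 1 met this criterion, and chance gives about 1 in 20. Without this library the Lrrc8a response in knockin mice was 0.89 on the log2 scale (edgeR adjusted p = 3.38e-10) in place of 0.96, and the difference between KI Dex and WT Dex was 0.15 in place of 0.22. The same library was the lowest of its group for Lrrc8c, at 45.1 CPM, and the highest for Lrrc8d, at 56.0 CPM.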

How the results depend on the processing

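The calls of Lrrc8a and Lrrc8c under dexamethasone kept their direction and side of the threshold in every alternative run, at 0.89 to 0.99 and 0.73 to 0.82 in knockin mice and 0.77 to 0.84 and 0.82 to 0.95 in wild-type mice (log2; highest adjusted p 1.29e-06). Lrrc8b was no longer called in wild-type mice with library totals without TMM (0.08, adjusted p = 0.222), without a filter on low counts (0.11, adjusted p = 0.137) or with only the groups compared (0.12, adjusted p = 0.0571), and its averaged response lost its call with library totals (0.05, adjusted p = 0.219), without a filter (0.08, adjusted p = 0.0814) and without WT PBS replicates 1 and 2 (0.06, adjusted p = 0.144); the cause was not tested. Of 71 calls of the other named genes, 52 held in every alternative and none changed direction; averaged calls were lost without a filter for Wnk4, Ttyh2, Slc6a6, Ado, Mog and 1700084E18Rik (adjusted p = 0.0768, 0.0631, 0.0939, 0.0543, 0.0849 and 0.0654), without WT PBS replicates 1 and 2 for Csad, Wnk4, Gm28035 and Ttyh1 (0.0556, 0.0528, 0.0503 and 0.248), without WT PBS replicate 4 and KI Dex replicate 2 together for Slc6a6, Slc6a11, Mog and 1700084E18Rik (0.0978, 0.144, 0.0617 and 0.0514), with the replicate block for Mog (0.0679), and without TMM for Gad2, Impa1 and Ttyh1 (0.051, 0.0778 and 0.219). That of Ttyh1 was also lost with DESeq2 size factors (0.0538) and with the stricter filter (0.055), and that of 1700084E18Rik without WT PBS replicate 3 (0.05). Other averaged losses with 1 library left out stand beside the genes. The uncalled differences that changed sign were the Lrrc8d interaction (0.0034 with library totals; -0.046 to 0.0149 with a library left out) and Lrrc8c between KI PBS and WT PBS (-0.0276 to 0.0695 with a library left out). Between KI Dex and WT Dex, 1 gene of all was called when only those groups were fitted. The replicate numbers were examined for a sign of paired mice. Of 30 same-numbered pairs, 5 correlated above 0.1 (r of -0.11 to 0.25), and 7 of 20 libraries correlated best with their own number. No chance level was worked out for these counts, and whether same-numbered mice shared a batch was not tested. With the replicate block, 1843 genes were called in knockin and 1643 in wild-type mice, against 1864 and 1717 without it, and no call of a Lrrc8 gene changed. As shares of counts, not per length, Lrrc8a made up 8.46% in KI Dex, 5.07% in KI PBS, 7.18% in WT Dex and 4.95% in WT PBS, Lrrc8b 52.7%, 59.7%, 52.9% and 58.7%, Lrrc8c 19.1%, 12.9%, 19.8% and 13.0%, and Lrrc8d 19.7%, 22.3%, 20.1% and 23.3% in the same order of groups. With the unshared exon length these shares were 28.5%, 18.5%, 25.1% and 18.1% for Lrrc8a, 36.1%, 44.3%, 37.5% and 43.5% for Lrrc8b, 12.7%, 9.25%, 13.5% and 9.30% for Lrrc8c, and 22.7%, 27.9%, 24.0% and 29.1% for Lrrc8d. Lrrc8e, Gm28035 and Phyhd1 had few counts in every library, which limits the precision of their values.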
